A study of Mus musculus with 2 samples.

Results

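The ELAVL2 RNA immunoprecipitation of newborn mouse ovary gave 1193 peaks that lay outside every gene of the authors' gene table and within 10000 bp upstream of the nearest gene start. They were chosen by place alone. A peak on chromosomes 1 to 19 was taken when each of its rows in that table was upstream or downstream of a gene and the row with the shortest distance was upstream at 10000 bp or less. These were 4.21% (95% exact Clopper-Pearson interval 3.98 to 4.45%) of the 28332 peaks called, and 18.5% (17.6 to 19.5%) of the 6442 peaks outside genes on these chromosomes. They lay upstream of 696 genes. They are called upstream peaks here, a name that gives a position relative to an annotation and not a kind of transcript.

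The series held 2 samples of ovary taken on the day of birth (P0): 1 RIP with an antibody against ELAVL2 and 1 input. Tissue of 100 ovaries was homogenised as 1 lysate, 5 ug of antibody was used with 6 hours of incubation, and the input was kept from the same lysate. The labels give no strain or genetic change for the mice, both samples are a pool of animals and of all cell types of the ovary, and no control pulldown was analysed here, so RNA bound to ELAVL2 and RNA kept by the beads cannot be told apart. In such a pool, fewer cells of a type and less RNA per cell cannot be told apart either. The RIP had 13787676 tags after reduction to 1 tag per position and strand and the input had 19479946, each from 3 pooled lanes. With 1 sample on each side there is no replicate check, no test was possible, and each interval covers counting error only.

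ELAVL proteins (the Hu family) bind U-rich and AU-rich stretches of RNA, mostly in 3' untranslated regions and introns, and are known for stabilising messenger RNAs and for control of splicing and translation. DNA just upstream of an annotated gene can be transcribed in several known ways. A gene may have a start further upstream than the annotation gives, a promoter may fire in the divergent direction, a neighbouring gene on the same strand may have a longer 3' end than annotated, or an unannotated noncoding RNA may lie there. The peaks carry no strand in the authors' list, so no peak can be given to one of these by itself. Their place relative to both annotations, their folds and the genes around them are described here.

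The peaks closest to a promoter are shown first, since their bases can be read. In the RefSeq promoter windows (GRCm38.p6, the assembly of mm10, 250 bases before to 50 after each start), 13 upstream peaks (1.09%, 0.581 to 1.86%) overlapped a window, at 12 promoters. Overlap was found for 2 of 1478 peaks within 10000 bp downstream of a gene and 84 of 20131 peaks overlapping a gene (0.417%). It was found for 0 of 1626 peaks over 50000 bp from the gene that the authors' table pairs with them. The windows stand at gene starts and these places were defined by distance from genes. The counts are therefore largely set by the choice of places. The 4 promoter windows printed here hold at least 50 bases of an upstream peak. They run 5' to 3' on the strand of the gene, and capitals mark the bases inside a peak.
Inhbc: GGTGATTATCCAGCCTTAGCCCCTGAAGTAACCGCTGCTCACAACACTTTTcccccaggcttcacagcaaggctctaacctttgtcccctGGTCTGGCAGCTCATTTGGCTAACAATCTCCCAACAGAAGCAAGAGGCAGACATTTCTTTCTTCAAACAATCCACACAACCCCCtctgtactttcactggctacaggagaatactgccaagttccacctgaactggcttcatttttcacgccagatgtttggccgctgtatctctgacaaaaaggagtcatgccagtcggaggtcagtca
Ube2n: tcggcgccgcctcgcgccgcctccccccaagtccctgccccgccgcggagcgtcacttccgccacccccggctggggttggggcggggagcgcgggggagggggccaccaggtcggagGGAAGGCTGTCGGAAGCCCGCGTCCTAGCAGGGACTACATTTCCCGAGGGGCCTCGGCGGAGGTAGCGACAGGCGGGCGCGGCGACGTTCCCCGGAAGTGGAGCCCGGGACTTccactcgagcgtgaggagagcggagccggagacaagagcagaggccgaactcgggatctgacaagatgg
Rufy1: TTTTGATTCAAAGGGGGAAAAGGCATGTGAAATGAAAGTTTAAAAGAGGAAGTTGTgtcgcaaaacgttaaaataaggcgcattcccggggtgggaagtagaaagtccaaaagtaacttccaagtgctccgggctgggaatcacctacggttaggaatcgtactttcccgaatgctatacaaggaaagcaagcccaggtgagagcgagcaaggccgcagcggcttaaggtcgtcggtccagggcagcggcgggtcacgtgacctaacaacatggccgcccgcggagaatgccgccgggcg
Pxt1: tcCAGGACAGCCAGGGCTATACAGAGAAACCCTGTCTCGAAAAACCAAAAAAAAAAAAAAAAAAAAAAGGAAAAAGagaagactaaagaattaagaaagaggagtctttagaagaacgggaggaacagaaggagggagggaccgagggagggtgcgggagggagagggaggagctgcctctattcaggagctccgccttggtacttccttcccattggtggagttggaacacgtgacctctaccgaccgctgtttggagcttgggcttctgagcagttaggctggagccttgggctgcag
These windows are at chr10:127370499-127370798 on the minus strand, chr10:95514912-95515211 on the plus strand, chr11:50431076-50431375 on the minus strand and chr17:28942213-28942512 on the minus strand, in the order printed.

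The Inhbc window held 2 peaks. Inhbc encodes the beta C subunit of the inhibins and activins. Its peaks ended 80 bp and 203 bp before the start with folds of 7.41 and 8.73 and pileups of 10 and 12, and further peaks stood 460 bp (fold 11.4, pileup 16) and 1952 bp (fold 4.68, pileup 7) upstream. No peak overlapped the gene body of Inhbc. Fold is the authors' ratio of RIP pileup plus 1 to local input plus 1, and pileup is the number of overlapping RIP tags at the summit. The window of Ube2n, which encodes a ubiquitin-conjugating enzyme, was richer in G and C: 72.7% of its bases were G or C, against 49.7% for Inhbc and a median of 52.7% over all 32851 windows. The Ube2n peak, which ended 20 bp before the start, had a pileup of 31 and a fold of 3.64, and 10 peaks overlapped the gene body (best fold 5.29). The Rufy1 peak, at a gene for an endosomal adaptor protein, had a fold of 5.08 at a pileup of 12 and bases of 33.9% G and C. The Pxt1 peak, at a gene known for expression in testis, had a fold of 5.27 at a pileup of only 8 and included a run of 22 A. The sources used here do not say how tags with several matches were placed.

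Short motifs were counted in the 12 promoter windows on the strand of the gene and its complement. AATAAA, the letters of the common polyadenylation signal, was in 3 of 12 (25.0%) against 19.6% of all windows. ATTTA, the core of AU-rich elements in RNA, was in 3 of 12 (25.0%) against 34.1%. A run of TTTTTTT was in 2 of 12 (16.7%) against 11.7%, TATAAA in 1 of 12 (8.33%) against 13.6%, and GGGCGG in 4 of 12 (33.3%) against 35.7%. With 12 windows, 1 window more or less moves a share by 8.33 points, and a match is a description of letters only.

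Upstream peaks were spread over the 10000 bp and did not pile up at the start. There were 65 within 500 bp (130 per kb), 80 between 500 and 1000 bp (160 per kb), 153 from 1000 to 2000 bp (153 per kb), 428 from 2000 to 5000 bp (143 per kb) and 467 from 5000 to 10000 bp (93.4 per kb). Peaks downstream of genes were densest next to the gene, with 626 per kb in the 500 bp after the annotated end, 416 per kb in the next 500 bp and 64.2 per kb from 5000 to 10000 bp. Thus 12.2% (10.4 to 14.1%) of the upstream peaks lay within 1000 bp, against 35.3% (32.8 to 37.7%) of the downstream ones. These classes are not like sets. The authors' table appears to pair peaks by gene start, so a peak past a gene's end can be counted upstream of another gene. The nearest gene was unnamed or had a clone-type name, such as a Gm or Rik name, for 54.7% of downstream and 39.4% of upstream peaks. Such names are not counted among approved symbols here. The median fold of the upstream peaks moved little with distance: it was 4.97 within 500 bp, 4.20 from 500 to 1000 bp, 4.85 from 1000 to 2000 bp, 4.72 from 2000 to 5000 bp and 4.70 beyond. Downstream, the median fold was 2.84 in the first 500 bp at a median pileup of 38, and 4.93 from 5000 to 10000 bp at a median pileup of 13. The 3 upstream peaks just inside the distance limit were at Oxct1 (9993 bp, fold 4.14), Gm14119 (9995 bp, 4.68) and Ghsr (9998 bp, 7.03), and the 3 just outside at Hs6st1 (10008 bp, 5.11), Gm12135 (10029 bp, 5.85) and Hsd3b1 (10052 bp, 4.03).

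**Figure D1:**
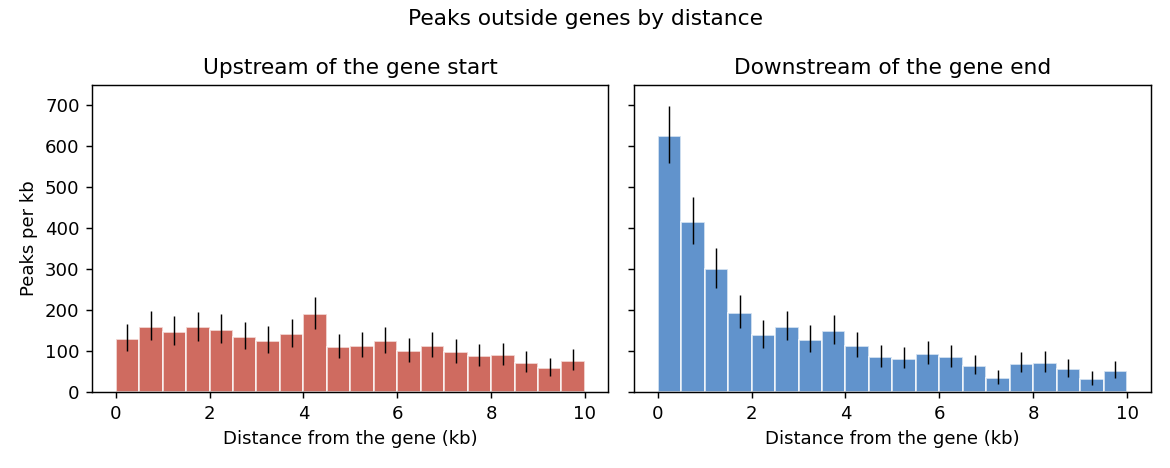
Peaks per kb in steps of 500 bp by distance in kb from the gene, upstream of the start (left) and downstream of the end (right), with exact Poisson 95% intervals. The upstream profile is 130 per kb in the first step, while the downstream profile is 626 per kb there.

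The nearest peak of all was 4 bp before the pseudogene Gm13176 (fold 3.48, pileup 37). The 10 nearest at genes with an approved symbol were between 6 and 100 bp from the start. Rheb, the GTPase that activates mTORC1, had a peak 6 bp before its start (chr5:24842631-24842682, fold 4.22, pileup 34) and 2 peaks inside (best fold 3.39). Rspo2, a secreted amplifier of WNT signalling, had peaks at 15 bp (fold 6.21, pileup 14) and 443 bp (fold 8.78, pileup 14), and 7 inside (best fold 6.02). Cphx2, a homeobox gene, had one at 37 bp (fold 5.80, pileup 7), Sapcd1 one at 38 bp (4.80, pileup 14) and Hpdl one at 46 bp (5.57, pileup 10). The other named nearest peaks were those of Ube2n and Inhbc given above, Olfr718-ps1, an olfactory receptor pseudogene, at 89 bp (fold 5.38), the olfactory receptor gene Olfr13 at 99 bp (4.55) and Txnrd3, a thioredoxin reductase gene, at 100 bp (3.73, pileup 8). A peak also overlapped the gene body at 5 of these 10 genes.

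As a class, upstream peaks had few tags and high folds. Their median fold was 4.73 (quartiles 3.66 and 5.86, range 1.77 to 15.8) at a median pileup of 14. Peaks downstream of genes had a median fold of 4.10 at a pileup of 19, and peaks overlapping a gene 3.26 at 28. Peaks over 50000 bp from their paired gene had 5.11 at 10. These are called far from genes here, by the pairing in the authors' table alone. Another gene can be nearer, and 19.5% of them lay within a RefSeq gene body. A fold of at least 5 was reached by 537 upstream peaks (45.0%, 42.2 to 47.9%), against 33.4% (31.0 to 35.9%) downstream, 54.1% far from genes, 20.2% in genes and 26.1% of all 28332 peaks. A fold of at least 10 was reached by 25 (2.10%, 1.36 to 3.08%), against 15 downstream peaks (1.01%, 0.569 to 1.67%) and 0.755% of all peaks. A pileup of at least 20 was reached by 33.9% (31.2 to 36.6%), against 49.5% downstream and 58.3% of all peaks.

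Upstream peaks were also set beside the other places by input level. The local input level of a peak, computed from its fold and pileup, is the background the peak caller used. The groups in this paragraph are in input tags. Levels of single peaks and class medians elsewhere are in the caller's scaled units, where 1 input tag is 0.708. At up to 1 input tag the median fold was 5.85 upstream (386 peaks), downstream (339), far from genes (808) and in genes (2647). That value is the fold of a pileup of 7 at the genome-wide background, and few values are possible at so few tags. Above 1 and up to 3 tags it was 5.12 upstream, 5.43 downstream, 5.12 far from genes and 5.38 in genes, above 3 and up to 10 tags it was 4.19, 4.18, 4.36 and 3.90 in the same order, and above 10 tags it was 2.65, 2.45, 2.71 and 2.47. The input level was up to 1 tag for 32.4% (29.7 to 35.1%) of upstream peaks, against 22.9% downstream, 49.7% far from genes and 13.1% in genes. The q cutoff sets a lower limit on fold that grows as input falls: the lowest fold of an upstream peak was 3.51 at up to 1 input tag and 1.77 above 10 tags. Since the level is computed from fold and pileup, these values do not show that input level accounts for the difference in fold between places.

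**Figure D2:**
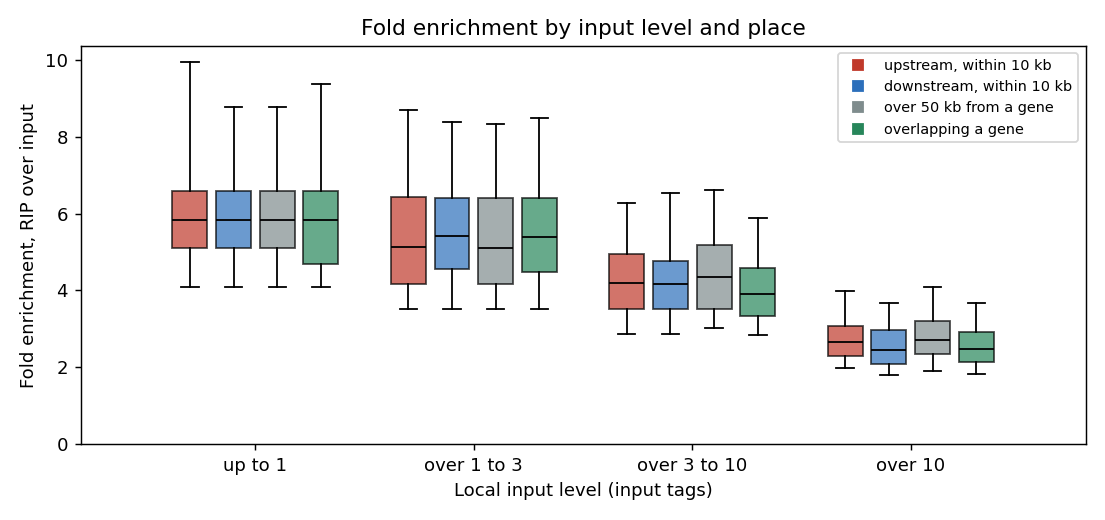
Fold enrichment of RIP over input (linear axis) by local input level in input tags, for peaks upstream, downstream, far from genes and in genes. Boxes give quartiles with the median, and whiskers run from the 5th to the 95th percentile of peaks. The median is 5.85 in all 4 places at up to 1 input tag and between 2.45 and 2.71 above 10 tags.

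The highest folds among upstream peaks with a pileup of at least 20 were at genes of varied function. Gtf3c3, a subunit of the RNA polymerase III factor TFIIIC, had the highest, 15.8 at a pileup of 22 against an input level of 0.453 (chr1:54444839-54444911). That peak lies inside Gm34066, a RefSeq gene on the same strand as Gtf3c3, which holds 5 upstream peaks. Gpsm2, which orients the mitotic spindle, followed with 15.6 (chr3:108724100-108724475, pileup 30 against an input level of 0.991), had no peak inside and had the largest -log10 q of the class, 26.8. Tex12, a central element protein of the synaptonemal complex, had 3 upstream peaks with folds of 3.84, 6.72 and 11.3, all inside the RefSeq body of Il18 on the opposite strand, and 4 peaks in its own body (best fold 5.37). L3mbtl4, of the MBT chromatin reader family, had a peak of fold 10.3 at 9525 bp and 4 inside (best 8.64). Psg19 (9.23) is of the pregnancy-specific glycoprotein family and Vmn1r86 (9.11) is a vomeronasal receptor, neither with a peak inside. Rhoq, a small GTPase, had 8.69 at 7449 bp and 3 peaks inside (best 7.31).

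Ranking by -log10 q added 3 genes. The Mcm10 peak (chr2:5019094-5019467) had a fold of 8.24 at a pileup of 44 and a -log10 q of 21.9. Mcm10 is a replication initiation factor, and the peak was 6302 bp before its start but 1054 bp past the end of Optn, the optineurin gene, on the same strand. Slc12a2, the sodium, potassium and chloride cotransporter, had a peak of fold 14.6 at a pileup of 19 with 10 peaks inside (best 5.80). Ighv1-62, an immunoglobulin heavy chain segment listed as a pseudogene, had 13.9 at a pileup of 18, and that peak lies within the Igh locus of RefSeq. The input level of both was at the genome-wide background of 0.369, which is the lowest level the caller allowed, and 12.3% (10.5 to 14.3%) of upstream peaks were at that level, against 8.05% downstream and 23.7% far from genes.

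Much of the class lay inside a gene of the other annotation. In RefSeq, 405 upstream peaks (33.9%, 31.3 to 36.7%) were within a gene body, against 43.6% (41.1 to 46.2%) of downstream peaks and 19.5% (17.6 to 21.5%) of those far from genes. For 66 (5.53%) it was the body of the paired gene, which RefSeq starts further upstream. For 147 (12.3%) it was another gene on the same strand, with a median fold of 4.26 at a pileup of 22. For 114 (9.56%) it was a gene on the opposite strand, with a median fold of 5.27 at a pileup of 13, and for 78 (6.54%) strands were mixed or not listed. The remaining 788 (66.1%, 63.3 to 68.7%) were in no RefSeq gene, with a median fold of 4.87 at a pileup of 12. Of the genes holding peaks other than the paired one, protein-coding genes held 169 peaks, long noncoding RNA genes 136 and pseudogenes 35.

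Of the 339 peaks inside another RefSeq gene, 123 lay past the 3' end that the authors' table gives for that gene, at a median of 1801 bp, with a median fold of 3.92 at a pileup of 27. Another 10 lay before that gene's start (median fold 5.84, pileup 10.5), and for 206 the gene was not found in the table by symbol (median fold 4.95, pileup 15). The table lists only genes paired with a peak, so absence from it does not mean that the authors' annotation lacks the gene. Slc25a30, a mitochondrial carrier, held 5 such peaks 272 to 1685 bp past its end in the table, with folds of 2.67 to 3.21, all paired with Cog3. Kalrn held 6 (3887 to 4825 bp past the end, folds 4.55 to 5.30), paired with Umps. Hint3 held 7 (folds 3.81 to 5.13) paired with Trmt11, Carnmt1 held 8 (2.26 to 6.33) paired with D030056L22Rik, and Gm9017 held 8 (4.10 to 11.7) paired with Epha6. Rpusd2 held 5 (3.96 to 6.66) paired with Casc5, a kinetochore gene.

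Neighbouring gene ends were also counted in the authors' own table, without RefSeq. For 293 upstream peaks (24.6%, 22.1 to 27.1%) the 3' end of another of its 11969 genes faced the peak within 10000 bp, at a median of 2239 bp. For 197 (16.5%) another gene was nearer than the start of the paired one, and in 197 of 197 it was that gene's 3' end that faced the peak and in 0 its start. The table thus appears to pair a peak with the nearest gene start and can pass over a nearer gene end. Under such pairing the 0 is fixed in advance and is no observation about the peaks. It also leaves few peaks before the start of another gene, so the 123 and 10 peaks above are not like counts. Without these 197 peaks the class held 996, with 48.4% at a fold of at least 5 and 28.8% in a RefSeq gene.

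On the other side of the 788 peaks in no RefSeq gene, the nearest feature within 10000 bp was the end of a gene on the same strand for 168 (21.3%, 18.5 to 24.3%), nearer than the paired start for 110. It was the start of a gene on the opposite strand, so that the peak stood between 2 divergent genes, for 46 (5.84%, 4.31 to 7.71%), and these had a median fold of 5.85 at a pileup of 10.5. The strand was not listed for 97 (12.3%). For 477 (60.5%, 57.0 to 64.0%) no other gene was within 10000 bp on the side away from the paired gene. These had a median fold of 4.97 at a pileup of 11. A strand was known for 60.8% of RefSeq genes, which limits the strand counts. It came from the RefSeq promoters or, failing that, from the authors' table by symbol.

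**Figure D3:**
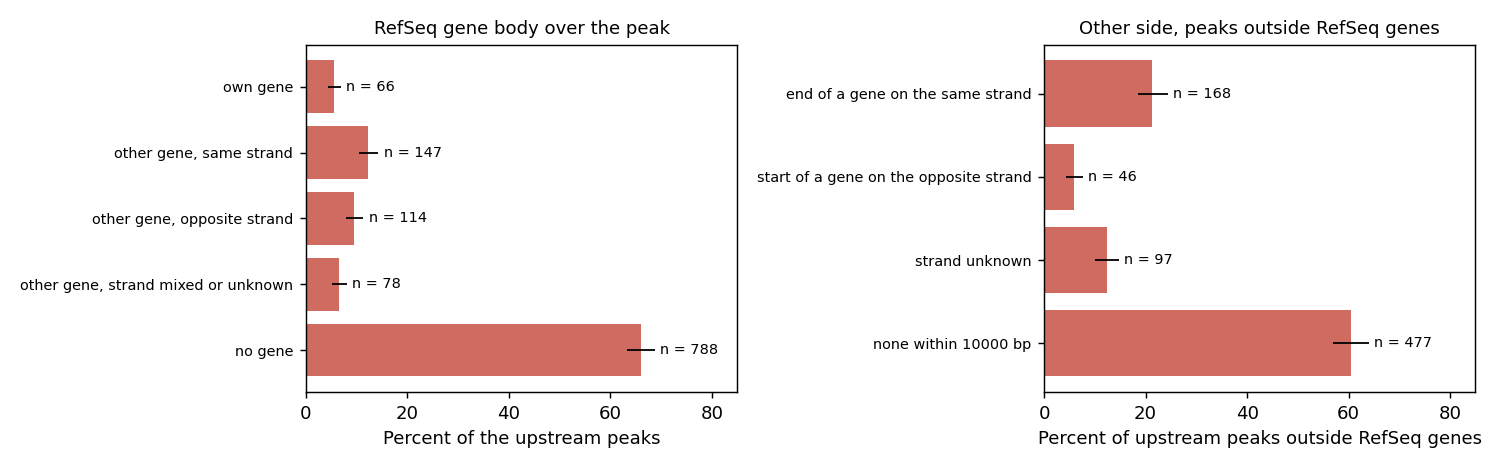
Left, percent of the 1193 upstream peaks by the RefSeq gene body over them. Right, percent of the 788 in no RefSeq gene by the nearest feature on the other side. Error bars are exact 95% intervals and n is the number of peaks. Of the upstream peaks, 788 (66.1%) are in no RefSeq gene. On the side away from the paired gene, 477 of these have no other gene within 10000 bp.

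The 66 peaks inside the RefSeq body of their own gene lay at 43 genes, 30 of them protein-coding, whose RefSeq start was 106 to 268319 bp further upstream (median 7010 bp). A peak also overlapped the authors' body of 15 of the 43. The 2 Rspo2 peaks named above are of this kind, with a RefSeq start 776 bp upstream. Hnrnpu, a nuclear RNA-binding protein gene, had 3 such peaks at 246, 675 and 771 bp with folds of 4.76, 2.95 and 2.76 and pileups of 24, 27 and 33, within a RefSeq extension of 1094 bp, while its 2 peaks inside reached 1.93. Kcnk13, a potassium channel gene, had 7 upstream peaks with folds of 4.14 to 6.72 that ran from 2616 to 553 bp before the start. Of these 3 lay in the RefSeq extension of 1350 bp, and the gene had 1 peak inside (4.80). The highest best folds among the 43 were 9.18 at the pseudogene Gm4862, 8.78 at Rspo2, 8.32 at Gm10323, 8.04 at the zinc finger gene Zbtb32 and 7.76 at Zfp640. Cnot6, a deadenylase of the CCR4-NOT complex, had 3.02.

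Many upstream peaks came in rows. Of the 696 genes, 479 had 1 upstream peak, 217 had 2 or more and 42 had 5 or more. When peaks within 1000 bp of each other were joined, 746 regions were left, and 209 regions of 2 or more peaks held 656 peaks (55.0%). Peaks of 1 row may come from 1 transcript and are not separate observations of it.

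The longest rows are at genes of very different kinds. Hsd3b1, a 3-beta-hydroxysteroid dehydrogenase of steroid hormone synthesis, had the most, 13 peaks from 562 to 9496 bp (chr3:98860357-98869781). Their folds were 2.55 to 7.31 and pileups 12 to 38, in 3 separate regions, with no peak inside and no RefSeq gene over them. Arfgap3, a GTPase activator for ARF proteins of the Golgi, had 12 (chr15:83353691-83356369) with folds of 2.07 to 4.09 and pileups of 24 to 55, all 12 inside 1700001L05Rik, 1157 to 3665 bp past that gene's end in the authors' table. Ccdc6, a coiled-coil protein gene, had 10 (chr10:70089372-70092452) with folds of 3.92 to 9.50. The 2 farthest, at 7663 and 7502 bp, both had fold 9.50 at a pileup of 12. The 2 closest, at 4874 and 4669 bp, had 4.63 and 4.38 at pileups of 20 and 22. Inside Ccdc6 there were 7 peaks with a best fold of 3.15.

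Sgpp1, a sphingosine-1-phosphate phosphatase gene, had 9 upstream peaks (chr12:75741829-75745873) at 6099 to 9840 bp, with folds of 2.70 to 14.1. The highest, 14.1 at a pileup of 23 against an input level of 0.708, was the closest to the start, and a second of 11.0 stood at 7661 bp, between peaks of 2.70 and 4.19. The farthest, at 9840 bp, lies in the RefSeq gene Gm40447, and 1 peak inside Sgpp1 had a fold of 3.39. The pseudogene Pced1c-ps had 9 with folds of 3.48 to 5.29 and pileups of 11 to 41, beginning 329 bp from its start. Lsm14b, a P-body protein gene known for its role in oocytes, had 8 with folds of 3.48 to 9.56, the highest at 4110 bp, and 3 peaks inside with a best fold of 2.50.

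**Figure D4:**
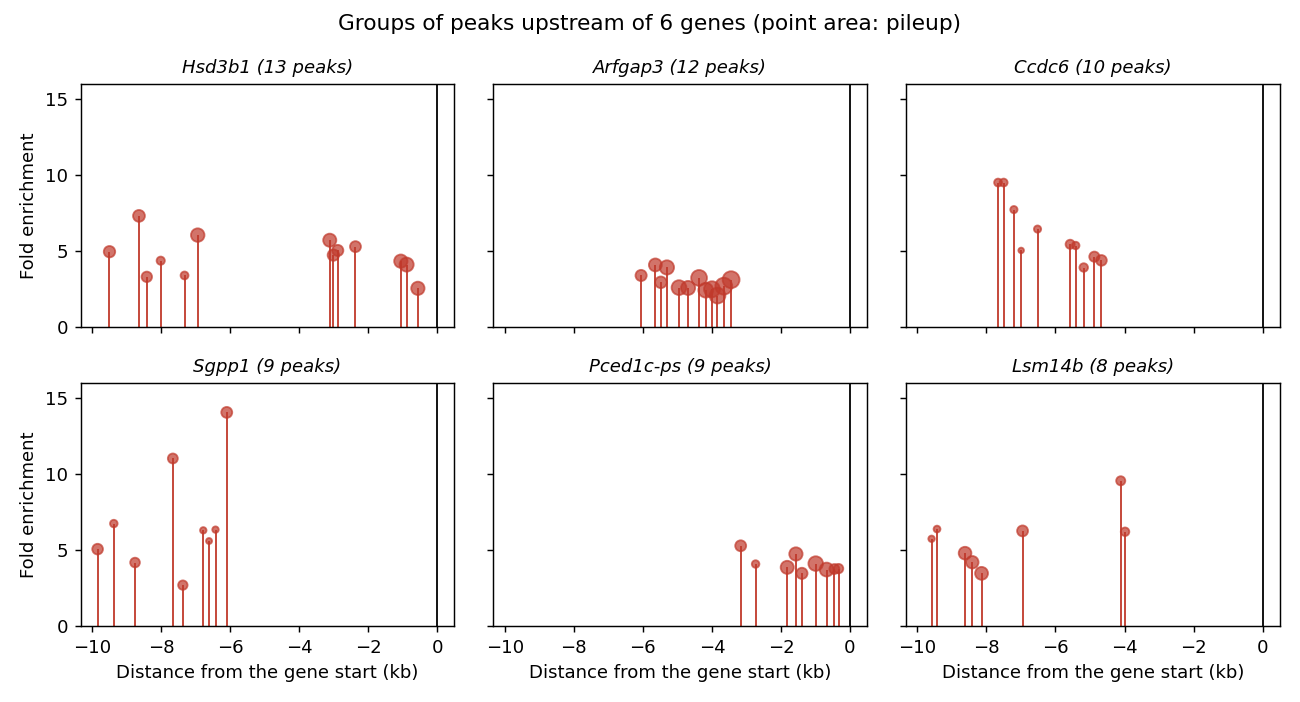
Upstream peaks of 6 genes by distance in kb from the gene start (vertical line at 0), with fold enrichment on the linear vertical axis and point area in proportion to pileup. The 12 peaks of Arfgap3 have high pileups and folds of 2.07 to 4.09, while Sgpp1 has pileups of 7 to 23 and folds of up to 14.1.

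Whether RNA of the gene itself was also in peaks was asked for each gene. Of the 696 genes, 185 (26.6%, 23.3 to 30.0%) were overlapped by at least 1 peak, with a median of 3 peaks inside. Over all 20661 autosomal protein-coding genes of RefSeq the share was 23.7%, though the 696 also hold genes of other kinds. In these 185 the best fold upstream was higher than the best inside in 110 (59.5%), with medians of 5.15 upstream and 4.57 inside. Input level was not matched in this comparison. Over the whole classes its median, in the caller's scaled units, was 1.94 for upstream peaks and 7.79 for peaks overlapping a gene. Folds were lower at higher input. These folds therefore do not rank RNA upstream against RNA of the gene. The genes with no peak inside had a median best fold upstream of 5.11. By peak, the nearest gene was overlapped for 360 (30.2%, 27.6 to 32.9%), against 28.2% (25.9 to 30.6%) of downstream peaks. This share was 44.6% (32.3 to 57.5%) within 500 bp, 37.5% (26.9 to 49.0%) from 500 to 1000 bp and 30.7% (23.5 to 38.7%) from 1000 to 2000 bp. It was 25.9% (21.8 to 30.4%) from 2000 to 5000 bp and 30.6% (26.5 to 35.0%) from 5000 to 10000 bp. Peaks of 1 row share their gene and are not independent. The intervals count them as independent, so no difference between distances is read from them.

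By the kind of nearest gene, 715 peaks (59.9%) were upstream of 410 protein-coding genes. The gene was overlapped by another peak for 41.7% of these peaks. Genes with several upstream peaks weigh more in this share, so it is not like the 23.7% of genes above. Pseudogenes followed with 157 peaks (8.28% overlapped), then long noncoding RNA genes with 60 (25.0%), small nucleolar RNA genes with 25 (4.00%), miRNA genes with 18 and small nuclear RNA genes with 17 (0 overlapped in both). The symbol of 181 could not be matched to RefSeq. Short RNA genes are small targets for overlap. Olfactory receptor genes had 21 upstream peaks at 16 genes (median fold 4.68) and 0 overlapped, and vomeronasal receptor genes 18 at 9 genes (5.64), with 8 of the 18 at a gene that another peak overlapped.

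Of 20661 autosomal protein-coding genes in RefSeq, 410 (1.98%, 1.80 to 2.18%) had an upstream peak and 4895 (23.7%) were overlapped by a peak. The gene lists are read beside these shares, with no test. No gene of 29 in the oocyte list had one, which allows a share of up to 11.9%, while 11 of the 29 (37.9%) were overlapped by a peak; peaks on the X chromosome could not be members. In the meiosis list 2 of 36 had one (5.56%, 0.680 to 18.7%), among them Tex12, and 19 of 36 (52.8%) were overlapped. In the mRNA decay and P-body list 3 of 43 had one (6.98%, 1.46 to 19.1%): Lsm14b, Cnot6 and Lsm4 (fold 2.10, pileup 53), and 33 (76.7%) were overlapped. Of 45 RNA-binding regulators 2 had one (4.44%, 0.543 to 15.1%) and 34 (75.6%) were overlapped. Lin28a, the repressor of let-7 processing, had 3 upstream peaks with folds of 3.75, 4.53 and 7.45 and 1 inside (4.08). Ybx2, a germ cell mRNA-binding protein, had 1 at 4029 bp with a fold of 5.86 and 6 inside (best 6.53).

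Ribosomal protein genes (1 of 90, Rpl41, fold 3.05) and respiratory chain genes (1 of 100, Cox7a1, with 5 peaks and a best fold of 5.76, inside the RefSeq gene Gm5113) had 1.11% and 1.00%. A peak overlapped 5 of 90 ribosomal protein genes (5.56%) and 12 of 100 respiratory chain genes (12%). Markers of other ovarian cells had none: 0 of 12 granulosa, 0 of 7 stromal, 0 of 5 endothelial, 0 of 4 immune and 0 of 4 erythroid markers. Of these, 1 granulosa and 1 endothelial marker were overlapped by a peak. Lists this short allow large shares even at 0, up to 26.5% for the granulosa list.

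Upstream peaks stood at like distances from a pair of hairpin genes of the same sequence. Mir683-1 and Mir683-2 are miRNA hairpin genes on the minus strand of chromosome 13, 56238 bp apart, with the same 109 bases in RefSeq. The hairpin is printed with the mature miRNA in capitals, and the mature miRNA with its seed (bases 2 to 8) in capitals.
Mir683-1 and Mir683-2 hairpin: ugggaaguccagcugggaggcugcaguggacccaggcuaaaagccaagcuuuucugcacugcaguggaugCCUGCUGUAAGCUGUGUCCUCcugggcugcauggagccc
mmu-miR-683: cCUGCUGUaagcuguguccuc
Upstream of Mir683-1 were 4 peaks and upstream of Mir683-2 were 7, at 3802 to 4895 bp and 3465 to 5049 bp. Each of the 4 had a counterpart at Mir683-2 whose distance differed by 11 to 56 bp. Their folds were 8.87 at 3802 bp from Mir683-1 and 6.39 at 3791 bp from Mir683-2. The next pair had 2.86 at 4110 bp and 3.24 at 4124 bp, the third 11.9 at 4485 bp and 7.68 at 4524 bp, and the last 4.97 at 4895 bp and 4.16 at 4839 bp. Within these 4 pairs the folds had the same order at both loci. With 7 peaks between 3465 and 5049 bp, counterparts this near can arise by coincidence, which was not tested. The difference in distance did not have the same sign in all pairs. The other 3 peaks of Mir683-2, at 3465, 3596 and 5049 bp, had no counterpart within 60 bp and had folds of 6.39, 4.41 and 3.92, the first as high as its peak at 3791 bp. No peak overlapped a hairpin, so the peaks say nothing of the mature miRNA.

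**Figure D5:**
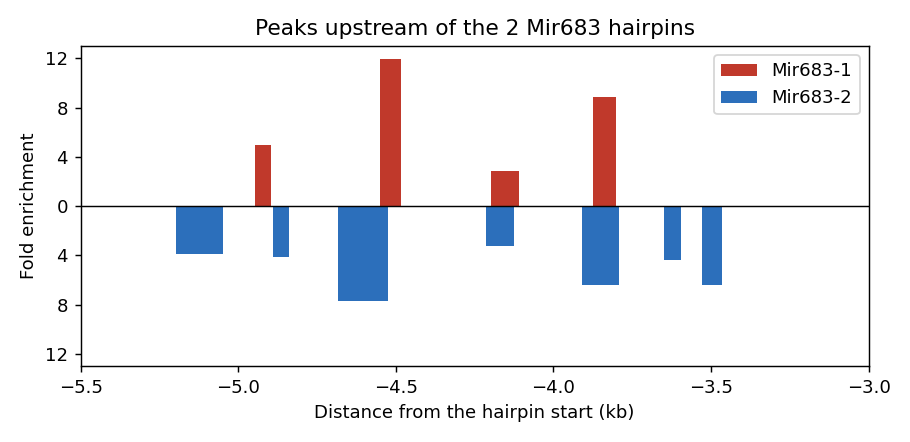
Upstream peaks of Mir683-1 (red, drawn up) and Mir683-2 (blue, drawn down) by distance in kb from the hairpin start, with fold enrichment on both sides of 0 and bar width equal to peak length. The 4 peaks of Mir683-1 stand opposite 4 of the 7 of Mir683-2.

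A stretch of chromosome 13 from 65409276 to 67485204 held further peaks, some of them alike, and was picked out after its values were seen. It had 17 upstream peaks at 13 genes, among them Zfp640 and Zfp874b, with folds of 2.55 to 8.32 (median 6.72). The peaks of Gm26715 and Gm26806 were both 122 bp long at 4520 and 4519 bp, both had a pileup of 23, and had folds of 7.81 and 7.96. Peaks at Cbx3-ps1 and Gm10323 both had a pileup of 25 and a fold of 8.32. Over the class, 142 upstream peaks (11.9%, 10.1 to 13.9%) had the same length, summit offset, pileup and fold as another peak of the list, against 10.4% downstream, 18.1% far from genes and 5.37% in genes. The peaks just named at Gm26715, Gm26806, Cbx3-ps1 and Gm10323 were not among these 142. Peaks of few tags take few distinct values and can match by coincidence, and whether peaks that match share sequence or reads was not tested.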

How the data were processed

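RNA from 1 ELAVL2 RIP sample and 1 input sample was sequenced as single reads of 36 bases after amplification. The submitters' processing notes name build mm10 and the tools TopHat2 (version 2.0.8b), MACS2 (version 2.1.0.20140616), FastQC (version 0.11.2) and CASAVA (version 1.8.2). Per the file headers, MACS2 pooled 3 lanes per sample, kept 1 tag per position and strand, extended tags to 50 bp and applied a q cutoff of 0.05. It was made for DNA and takes no account of splicing or strand. The pileup is a signal deposited by the authors. The fold is a ratio deposited by the authors, with a pseudocount of 1 on both sides. The -log10 p and -log10 q values were deposited by the authors and served to describe, rank and filter peaks within this list. Distances in bp come from the authors' deposited gene table, which held 85730 rows, 42176 of them repeats that were dropped. The sources used here do not say how it was made.

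Computed from these were the class of each peak, the input level (pileup and fold turned back into the caller's local background, 0.708 per input tag), overlap with RefSeq gene bodies of GRCm38.p6, promoter windows, and joined regions. The input level is not a tag count at the summit. The -log10 p recomputed from it differed from the deposited value by at most 5.62e-05. The nearest gene's symbol matched RefSeq for 1012 peaks (84.8%). No genome was used here, so peak sequences outside promoter windows were not read. Shares have exact Clopper-Pearson 95% intervals. Classification was tested on simulated peaks. No p-value is given, since each arm had 1 sample.

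Genes with an approved symbol were named by rule: the 10 highest folds among peaks of pileup 20 or more, the 10 highest -log10 q values, the 10 peaks nearest to a start, the 5 genes with most upstream peaks and the 3 of each gene list with the largest fold. Genes holding peaks in RefSeq, the genes with an earlier RefSeq start and the further rows and promoters named were chosen after their values were seen. 1 gene that the rule names is not reported here. The members and lists were chosen with earlier results of these data known. Alternatives were another distance limit, stricter q and pileup, joined peaks, approved symbols only, matching peaks dropped, chromosome X added and a fold without the pseudocount. Dropping peaks with a nearer gene end was added after seeing the data. Scripts ran under Python 3.11.15 with matplotlib 3.10.9, scipy 1.17.1, pandas 2.3.3 and numpy 2.4.6.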

Additional observations from a re-analysis of the deposited data

How the results depend on the processing

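No paired analysis was possible because there was 1 RIP and 1 input sample. Of 49 recomputed values for 6 results, 26 stayed within 1.5 times the count or within the interval of the value given, and 23 moved. The number of upstream peaks was 298 at a limit of 2000 bp, 513 at a -log10 q of at least 5, 404 at a pileup of at least 20, 746 with neighbouring peaks joined and 723 with approved symbols only. The median fold was 6.21 at the stricter q, 3.53 at the higher pileup, 5.11 with peaks joined (the best of each region is kept) and 7.06 without the pseudocount. The share with a fold of at least 5 was 67.6% at the stricter q, 20.3% at the higher pileup, 52.4% with peaks joined and 48.4% without peaks that had a nearer gene end. The share within 1000 bp was 48.7% at the limit of 2000 bp, by construction, and 14.4% without peaks that had a nearer gene end. The share whose nearest gene was overlapped by a peak was 35.6% at 2000 bp, 32.9% at the stricter q, 36.1% at the higher pileup, 27.5% with peaks joined and 38.5% with approved symbols only. The share in a RefSeq gene was 43.1% at the higher pileup, 29.2% with peaks joined and 28.8% without peaks that had a nearer gene end. Except where construction is named, the cause was not tested. The median upstream peak had a pileup of 14, after 7.98% of 172711531 aligned RIP tags and 9.26% of 210270620 input tags were kept at 1 per position and strand. How far depth limits these values was not tested.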

Other observations

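On chromosome X, 89 peaks met the same rule and had a median fold of 4.80 at a median pileup of 14. A further 153 peaks of the list were paired with no gene in the authors' table and had a median fold of 4.55 at a median pileup of 14.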
